A study of Mus musculus with 9 samples.

Results

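The AP-1 family consists of transcription factors that bind DNA as pairs of basic leucine zipper (bZIP) proteins. Its 10 members examined here are the FOS proteins Fos, Fosb, Fosl1 and Fosl2, the JUN proteins Jun, Junb and Jund, the BATF proteins Batf and Batf3, and Atf3. They were taken by gene symbol, 10 of the 45361 rows of the deposited count table. The cells were CH12F3, a B-lymphoma line of the mouse that is used to study immunoglobulin class switching, and their poly(A) RNA was sequenced. There were 3 libraries with valemetostat, an inhibitor of the H3K27 methyltransferases EZH1 and EZH2. There were 3 with tazemetostat, an inhibitor of EZH2, and 3 with the solvent DMSO. In all 9 libraries the cells carried a Ligase4 knockout, which removes the ligase of classical end joining, and were stimulated over 24 h by anti-CD40 antibody together with IL-4 and TGF-β. Whether the compounds were matched in dose or in length of exposure is unknown, since the labels state neither. Nor do the labels say whether the knockout line is 1 clone.

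JUN proteins pair with one another or with FOS proteins, while FOS proteins need a JUN partner to bind DNA. The pairs bind the TPA response element, called the AP-1 site, or the closely related cAMP response element (CRE). FOS and JUN transcripts of the immediate-early class rise within minutes of signals carried by MAP kinases and decay quickly. BATF proteins lack an activation domain, pair with JUN proteins and bind next to IRF4 or IRF8 at composite elements. In B cells Batf is needed for class switching. EZH1 and EZH2 place the repressive mark H3K27me3, and both inhibitors compete with the methyl donor S-adenosylmethionine and contain a pyridone ring.

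The promoters of Fos and Jun are shown because these were the 2 members called different between the compounds. Each is the 250 bases before the RefSeq transcription start, written 5′ to 3′ on the gene's own strand in mouse build GRCm38.p6. The Fos window is chr12:85473640-85473889 on the plus strand and the Jun window is chr4:95052223-95052472 on the minus strand. Capitals mark a match to the CRE-type pattern TGANNTCA.
Fos: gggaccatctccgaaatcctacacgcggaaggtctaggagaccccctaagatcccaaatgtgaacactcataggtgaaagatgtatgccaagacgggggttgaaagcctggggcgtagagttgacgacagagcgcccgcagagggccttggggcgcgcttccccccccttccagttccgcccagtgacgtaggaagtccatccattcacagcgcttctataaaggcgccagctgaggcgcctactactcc
Jun: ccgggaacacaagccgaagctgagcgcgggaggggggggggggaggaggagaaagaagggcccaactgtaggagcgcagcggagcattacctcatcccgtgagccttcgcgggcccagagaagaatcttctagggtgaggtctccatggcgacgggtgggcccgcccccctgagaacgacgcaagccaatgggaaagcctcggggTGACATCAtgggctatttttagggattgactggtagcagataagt
The Jun window holds 1 CRE-type match, TGACATCA, which begins 45 bases before the start, and the Fos window holds none. Of 32851 promoters of the same length, 11.9% hold this pattern. The pattern reads the same on both strands. It is 1 base longer in its spacer than the AP-1 site, TGANTCA, so a stretch cannot match both from the same starting base. Neither window holds an AP-1 site, which 6.75% of promoters hold, or a CArG box, the binding element of serum response factor, which 1.47% hold. Only exact matches within these 250 bases were searched. Sites further upstream, or sites that match a pattern in part, would be missed, so their absence from the promoters is not shown. All members but Fosl1 have a RefSeq promoter, 9 in all. Among them the Jund window is the only other one with a match to any of the 3 patterns. This CRE-type match, TGAAATCA, begins 61 bases before the RefSeq start used. That window ends at chr8:70697738, whereas the GENCODE annotation starts Jund, on the plus strand, at 70698949. The distance thus holds for the RefSeq start only. The Fos and Jun windows have 15 CpG dinucleotides each, against a median of 6 over all promoters, and a GC content of 58.4% for Fos and 61.2% for Jun.

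Fos and Batf lie close together on chromosome 12, with Jdp2 as the only protein-coding gene in the 209.4 kb between them. Batf3 and Atf3 are likewise separated by 1 protein-coding gene, Fam71a, over 61.4 kb of chromosome 1. The remaining members lie apart, with Jun on chromosome 4, Fosl2 on 5, Fosb on 7, Junb and Jund on 8 and Fosl1 on 19. Annotated genes on the opposite strand overlap Jun (the antisense gene Junos), Junb (Prdx2), Jund (Gm11175), Fosl1 (Ccdc85b) and Atf3 (Gm24748). No label states whether counting used the strand, so reads of these pairs could not be told apart.

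Each library held between 34080504 and 46675110 counts. A gene with 3 counts thus had 0.0633 to 0.087 CPM, the reads of a gene rescaled to libraries of equal size. The deleted gene, Lig4, had 46, 31 and 33 counts with valemetostat, 59, 21 and 49 with tazemetostat and 30, 39 and 29 with DMSO, and since the deleted part is not given these counts check nothing. All 10 B cell markers examined were expressed, at a summed 6699 to 7014 CPM with valemetostat, 6746 to 6965 with tazemetostat and 5704 to 6118 with DMSO. Most of that was Cd74, at 5390 CPM with valemetostat, 5450 with tazemetostat and 4518 with DMSO. Of the 10, 5 rose and 1 fell with valemetostat, where 20.5% of all tested genes rose and 18.7% fell. With tazemetostat 4 rose and 1 fell, where 19.9% of all tested genes rose and 18.2% fell. The marker that fell was Blk with either inhibitor. The 9 T cell markers summed to 50.3 to 55.5 CPM with valemetostat, 48.2 to 49.5 with tazemetostat and 38.3 to 42.1 with DMSO, and most of that was Lck, while Cd8b1 was at 0 with DMSO and Cd3e had 19 counts summed over the valemetostat libraries, 16 over the tazemetostat libraries and 1 over the DMSO libraries. The 8 myeloid markers summed to 27.7 to 30.9 CPM with valemetostat, 29.7 to 33.7 with tazemetostat and 30.1 to 33.4 with DMSO, with Cd14 at 0. Of the 4 tested myeloid markers, 2 rose and 1 fell with either inhibitor. Csf1r, which carried most of the sum, fell to 20.9 ± 2.09 CPM with valemetostat and 21.6 ± 1.58 with tazemetostat, against 28.7 ± 1.48 with DMSO. Lyz2, which encodes lysozyme, rose to 145 counts summed over the valemetostat libraries and 167 over the tazemetostat libraries, against 3 over the DMSO libraries. Adgre1, which encodes F4/80, rose to 7.03 ± 0.614 CPM with valemetostat and 8.25 ± 0.695 with tazemetostat, against 2.80 ± 0.197 with DMSO. The 6 stromal markers summed to 2.09 to 2.22 CPM with valemetostat, 1.46 to 2.70 with tazemetostat and 0.907 to 2.06 with DMSO, with Col1a2 at 0. The part of these shifts in the results below was not tested.

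JUN transcripts made up most of the family. Levels between genes are compared in TPM, transcript abundances that are corrected for length and scaled to a fixed total, which were recovered from the deposited log2 values. Jund, the JUN protein that resting cells also make, averaged 486 ± 37.2 TPM with valemetostat, 471 ± 28.1 with tazemetostat and 469 ± 28.5 with DMSO (SD, n = 3 each). Junb, a known partner of BATF in T cells, averaged 411 ± 28.2 TPM with valemetostat, 388 ± 8.46 with tazemetostat and 388 ± 32.8 with DMSO. Batf came next at 253 ± 6.03 TPM with valemetostat, 278 ± 8.94 with tazemetostat and 211 ± 8.92 with DMSO. Those 3 genes stood far above the others.

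Jun averaged 30.5 ± 3.35 TPM with valemetostat, 38.8 ± 2.24 with tazemetostat and 24.2 ± 1.06 with DMSO. Batf3 averaged 29.0 ± 4.10 TPM with valemetostat, 31.7 ± 0.486 with tazemetostat and 30.4 ± 2.94 with DMSO. The order of Jun and Batf3 was not stable. Batf3 was above Jun in every DMSO library, Jun was above Batf3 in every tazemetostat library, and the ranges overlapped with valemetostat. When the counts were instead divided by reference transcript lengths, Jun was above Batf3 in all 3 groups. Fos followed at 10.5 ± 1.15 TPM with valemetostat, 16.1 ± 1.17 with tazemetostat and 9.87 ± 1.21 with DMSO. Fosb averaged 1.77 ± 1.29 TPM with valemetostat, 3.42 ± 1.39 with tazemetostat and 3.24 ± 1.44 with DMSO. Fosl2 averaged 1.61 ± 0.569 TPM with valemetostat, 1.88 ± 0.246 with tazemetostat and 1.14 ± 0.458 with DMSO. Fosb was above Fosl2 in every tazemetostat and DMSO library, while their ranges overlapped with valemetostat. Junb and Jund overlapped only with valemetostat, where the highest Junb library had 443.9 TPM and the lowest Jund library 443.1 TPM.

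**Figure D1:**
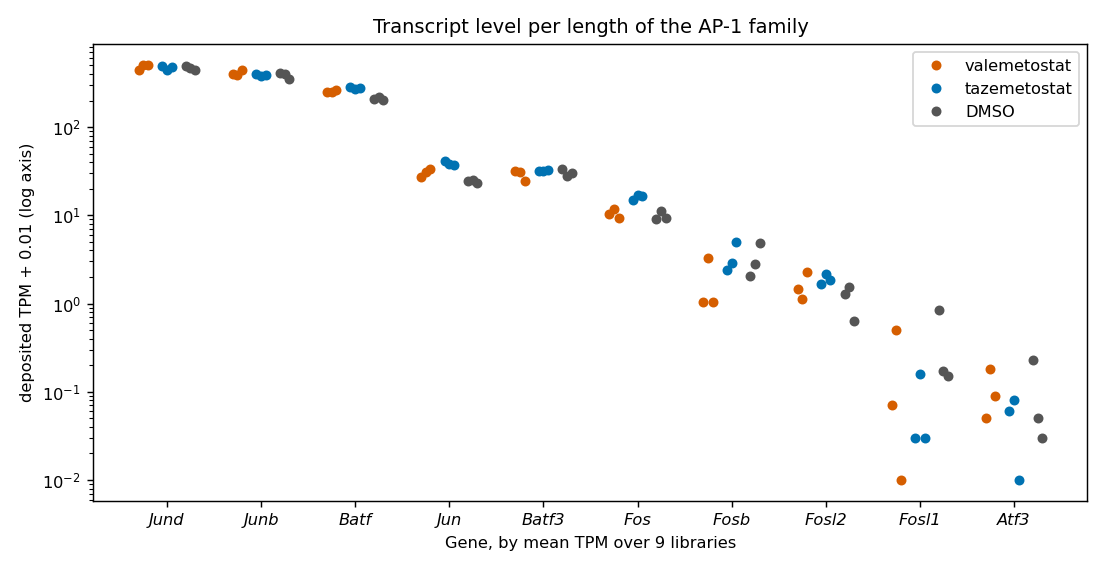
Deposited TPM plus 0.01 of the 10 AP-1 family genes on a log axis, 1 point per library, with valemetostat, tazemetostat and DMSO from left to right for each gene. Jund, Junb and Batf lie above 200 TPM in every library, and Fosl1 and Atf3 lie below 1 TPM.

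The members together summed to 1225 ± 60.6 TPM with valemetostat, 1229.7 ± 44.8 TPM with tazemetostat and 1137 ± 67.6 TPM with DMSO. JUN transcripts were 75.7 ± 1.09% of that sum with valemetostat, 73.0 ± 0.419% with tazemetostat and 77.4 ± 0.908% with DMSO. The BATF share was 23.1 ± 1.04% with valemetostat, 25.2 ± 0.321% with tazemetostat and 21.3 ± 0.751% with DMSO, and no library of one group overlapped another group. The FOS share was 1.15 ± 0.184% with valemetostat, 1.75 ± 0.235% with tazemetostat and 1.29 ± 0.167% with DMSO. The ratio of Batf to Junb in TPM was 0.587 to 0.636 with valemetostat, 0.707 to 0.728 with tazemetostat and 0.507 to 0.576 with DMSO. For Jun to Junb it was 0.0680 to 0.0782 with valemetostat, 0.0945 to 0.104 with tazemetostat and 0.0589 to 0.0656 with DMSO. Both ratios were thus highest with tazemetostat and lowest with DMSO, without overlap. Fewer cells of a kind and less RNA per cell cannot be told apart in such bulk libraries.

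Changes between groups were tested on the counts with edgeR's quasi-likelihood F test, Benjamini-Hochberg adjusted over the 12580 genes that passed a filter on low counts, and called at an adjusted p under 0.05. Values after ± are SE for log2 fold changes and SD of 3 libraries for levels. Of the 10 members, 8 passed the filter. Fosl1, which encodes FRA-1, and Atf3, a stress-induced partner of JUN proteins, did not. Fosl1 had 3, 4 and 0 counts with valemetostat, 1, 8 and 1 with tazemetostat and 4, 4 and 6 with DMSO. Atf3 had 2, 8 and 4 counts with valemetostat, 3, 4 and 0 with tazemetostat and 4, 2 and 1 with DMSO. Neither was tested, and at these counts a small change would not have been detectable.

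Of the 8 tested members, 3 rose with valemetostat (Jun, Junb and Batf) and 0 fell, where 39.2% of all tested genes were called, 20.5% higher and 18.7% lower. With tazemetostat 4 rose (Fos, Fosl2, Jun and Batf) and 0 fell, where 38.1% of all tested genes were called, 19.9% higher and 18.2% lower. DESeq2 called 3 higher with valemetostat and 4 with tazemetostat, and limma-trend on the deposited log2 values called 2 with valemetostat and 3 with tazemetostat. By these tools and at an unadjusted p under 0.05, 0 members were lower. Directly between the compounds, 2 members were lower with valemetostat (Fos and Jun) and 0 were higher, where 0.318% of all tested genes were called, 0.0636% higher and 0.254% lower. At an unadjusted p under 0.05, 3 members were lower and 0 higher. The shares of all tested genes, here and below, are edgeR shares at an adjusted p under 0.05. Counts at an unadjusted p have no matching share. DESeq2 called 2 lower and 0 higher, and limma-trend called 0 in either direction. The median log2 fold change of the 8 tested members was 0.17 with valemetostat and 0.34 with tazemetostat, each against DMSO, and -0.20 between valemetostat and tazemetostat. Over all tested genes it lay between -3.04e-05 and 0.00727. Both comparisons with DMSO use the same 3 DMSO libraries. The labels do not say that the replicates came from separate cultures, so the p-values reflect how far these libraries vary, and that variation may be technical only.

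**Figure D2:**
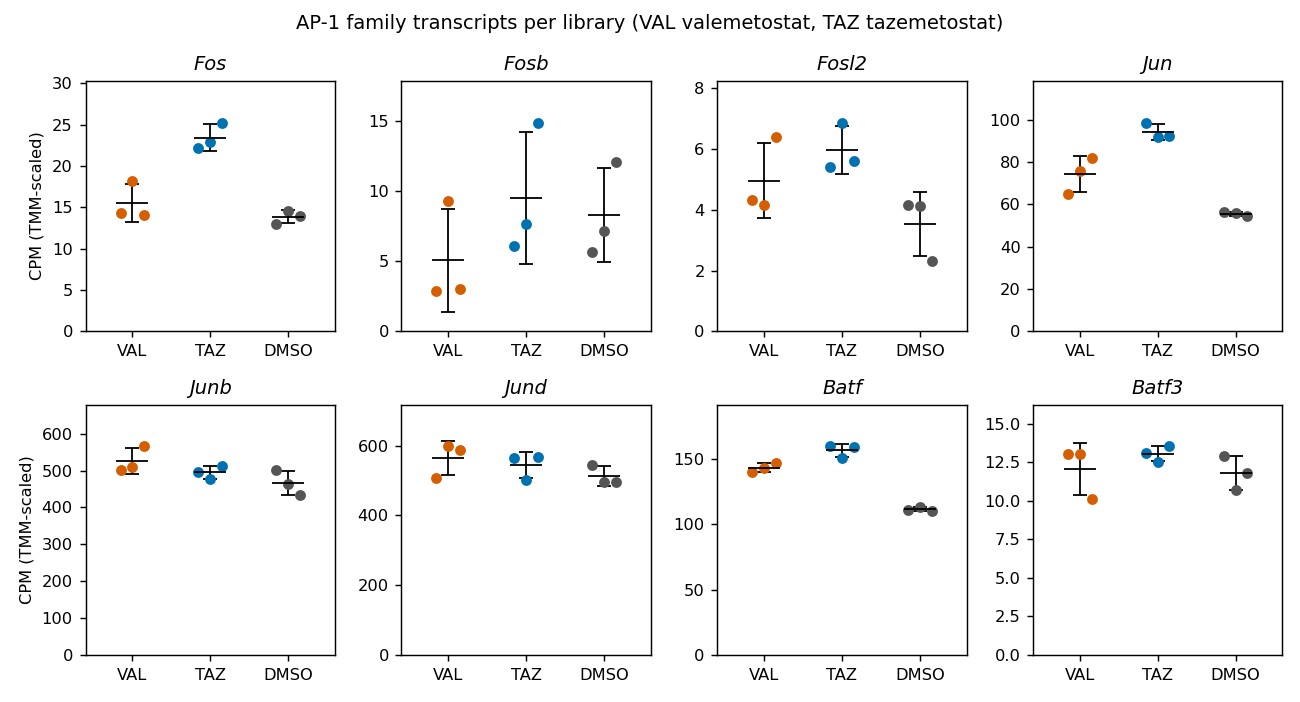
TMM-scaled CPM of the 8 tested AP-1 family genes in each library, with valemetostat, tazemetostat and DMSO from left to right, the mean as a bar and the SD as whiskers (n = 3 each). Batf and Jun show no overlap between any groups, Fos is set apart in the tazemetostat libraries, and Fosb varies as much within groups as between them.

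Among the FOS proteins, Fos rose with tazemetostat and not detectably with valemetostat. Fos, the founding immediate-early member, had 14.3, 18.2 and 14.1 CPM with valemetostat, 22.1, 22.9 and 25.2 CPM with tazemetostat and 13.0, 14.6 and 13.9 CPM with DMSO. All tazemetostat libraries lay above all others, while valemetostat and DMSO libraries overlapped. Against DMSO the log2 fold change was 0.17 ± 0.10 (SE) with valemetostat (edgeR adjusted p = 0.206) and 0.76 ± 0.10 with tazemetostat (adjusted p = 1.02e-06), where the level was 1.69-fold that of DMSO. Between the compounds Fos was lower with valemetostat by a log2 fold change of -0.59 ± 0.10 (95% interval -0.80 to -0.39, edgeR adjusted p = 0.00448). It ranked 7 by p among the 40 genes called in that comparison. The call between the compounds was lost without valemetostat replicate 1 (-0.54, adjusted p = 0.0563) and with limma-trend on the deposited log2 values (-0.57, adjusted p = 0.254), where only 1 gene in all was called.

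Fosl2, which encodes FRA-2, was much rarer. It had 4.34, 4.17 and 6.39 CPM with valemetostat, 5.41, 6.87 and 5.62 CPM with tazemetostat and 4.15, 4.12 and 2.30 CPM with DMSO. The tazemetostat libraries lay above the DMSO libraries, and 1 valemetostat library reached the tazemetostat range. The log2 fold change was 0.49 ± 0.21 with valemetostat (edgeR adjusted p = 0.0664) and 0.75 ± 0.21 with tazemetostat (adjusted p = 0.00542). Between the compounds it was -0.26 ± 0.20, with an interval from -0.68 to 0.15 (adjusted p = 0.808). The tazemetostat call was lost on the deposited log2 values (limma-trend adjusted p = 0.104), and the valemetostat value was called under 6 of 19 alternatives, among them a correction for transcript length and GC content (0.61, adjusted p = 0.0146).

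Fosb, an immediate-early relative of Fos, gave no call in any comparison. It had 2.86, 9.30 and 3.005 CPM with valemetostat, 6.06, 7.66 and 14.9 CPM with tazemetostat and 5.65, 7.19 and 12.1 CPM with DMSO, and all groups overlapped. Its interval between the compounds ran from -2.42 to 0.59 on the log2 scale (edgeR adjusted p = 0.802), which takes in both the value of Fos and 0.

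Among the JUN proteins, Jun rose with both inhibitors and more with tazemetostat. Jun, the strongest activator of the 3, had 64.8, 76.0 and 81.7 CPM with valemetostat, 98.6, 91.7 and 92.2 CPM with tazemetostat and 56.4, 55.7 and 54.4 CPM with DMSO. The 3 groups did not overlap, and the valemetostat libraries lay between the others and were spread the widest. The log2 fold change was 0.42 ± 0.07 with valemetostat (edgeR adjusted p = 1.64e-05) and 0.76 ± 0.07 with tazemetostat (adjusted p = 1.11e-09), rises of 1.33-fold with valemetostat and 1.70-fold with tazemetostat. Both were called under all 19 alternatives run. Between the compounds Jun was lower with valemetostat by -0.35 ± 0.06 (interval -0.48 to -0.21, edgeR adjusted p = 0.0131). That call was lost without valemetostat replicate 1 (-0.25, adjusted p = 0.128), valemetostat replicate 2 (adjusted p = 0.0689) or tazemetostat replicate 1 (adjusted p = 0.126), and on the deposited log2 values (limma-trend -0.34, adjusted p = 0.528).

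Junb rose slightly with valemetostat, and Jund was not called. Junb had 502, 511 and 566 CPM with valemetostat, 496, 477 and 512 CPM with tazemetostat and 502, 464 and 435 CPM with DMSO. The highest DMSO library lay within the tazemetostat range and level with the lowest valemetostat library. Junb rose with valemetostat by a log2 fold change of 0.17 ± 0.05 (edgeR adjusted p = 0.0106), and had 0.08 ± 0.05 with tazemetostat (adjusted p = 0.219). Between the compounds the value was 0.09 ± 0.05, with an interval from -0.02 to 0.20 (adjusted p = 0.713). The valemetostat call was lost without DMSO replicate 3 (adjusted p = 0.0662), without valemetostat replicate 3 (adjusted p = 0.0985), on the deposited log2 values (limma-trend 0.09, adjusted p = 0.353) and with the length and GC correction plus the replicate block (0.10, adjusted p = 0.0713). That correction alone brought the value to 0.10, still called (adjusted p = 0.0468). With tazemetostat Junb was called without DMSO replicate 1 (0.14, adjusted p = 0.0427). Prdx2, the peroxiredoxin gene on the opposite strand, had 4421 to 6807 counts a library and log2 fold changes of 0.27 with valemetostat and 0.24 with tazemetostat.

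Jund had 507, 598 and 588 CPM with valemetostat, 565, 503 and 568 CPM with tazemetostat and 546, 496 and 495 CPM with DMSO. All groups overlapped. The log2 fold change was 0.14 ± 0.06 with valemetostat (edgeR adjusted p = 0.0801) and 0.09 ± 0.06 with tazemetostat (adjusted p = 0.270). The interval between the compounds ran from -0.08 to 0.18. A valemetostat call was gained under 4 of 19 alternatives. These were leaving out valemetostat replicate 1 (0.22, adjusted p = 0.00438), leaving out DMSO replicate 1 (0.19, adjusted p = 0.0281), no filter on counts (0.15, adjusted p = 0.00629) and the compared groups alone (0.14, adjusted p = 0.0478).

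Among the BATF proteins, Batf rose with both inhibitors and Batf3 was not called. Batf had 139.9, 143 and 147 CPM with valemetostat, 159.6, 151 and 159 CPM with tazemetostat and 111, 113 and 110.3 CPM with DMSO. The groups did not overlap, with valemetostat between the others. The log2 fold change was 0.36 ± 0.05 with valemetostat (edgeR adjusted p = 5.28e-07) and 0.49 ± 0.05 with tazemetostat (adjusted p = 3.32e-09), rises of 1.28-fold with valemetostat and 1.40-fold with tazemetostat. Both calls held under all 19 alternatives, though the correction for transcript length and GC content brought the values to 0.21 with valemetostat and 0.37 with tazemetostat. Between the compounds Batf had -0.13 ± 0.04, with an interval from -0.22 to -0.04, which did not pass adjustment over all genes (edgeR adjusted p = 0.397).

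Batf3, known for its part in dendritic cell development, had 13.1, 13.1 and 10.1 CPM with valemetostat, 13.1, 12.6 and 13.5 CPM with tazemetostat and 12.9, 10.7 and 11.8 CPM with DMSO. The valemetostat range took in the whole DMSO range. The log2 fold change was 0.03 ± 0.11 with valemetostat (edgeR adjusted p = 0.868) and 0.14 ± 0.11 with tazemetostat (adjusted p = 0.350). Jdp2, a bZIP repressor, lies between Fos and Batf and was named for its position after its values were seen. It averaged 93.1 ± 5.73 CPM with valemetostat, 98.6 ± 2.56 CPM with tazemetostat and 100.4 ± 4.86 CPM with DMSO. Against DMSO it was not called (edgeR adjusted p = 0.104 with valemetostat and 0.717 with tazemetostat). Batf was called with both inhibitors, while Fos was called with tazemetostat only.

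**Figure D3:**
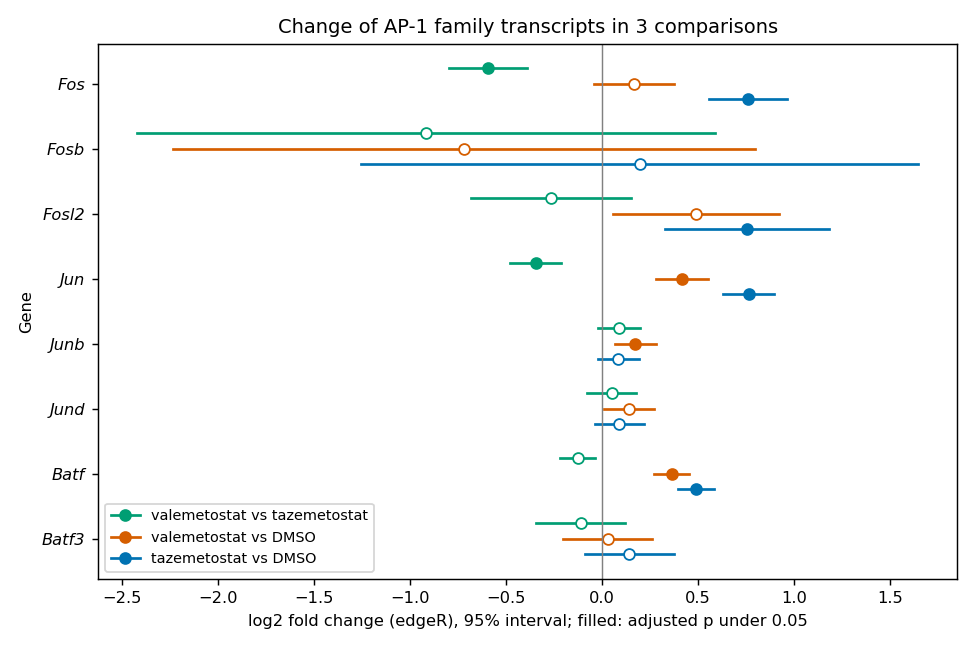
Log2 fold changes (edgeR) of the 8 tested members with 95% intervals, for valemetostat against tazemetostat, valemetostat against DMSO and tazemetostat against DMSO from top to bottom within each gene. Filled points have an adjusted p under 0.05. Only Fos and Jun have filled points between the compounds, at -0.59 and -0.35.

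**Figure D4:**
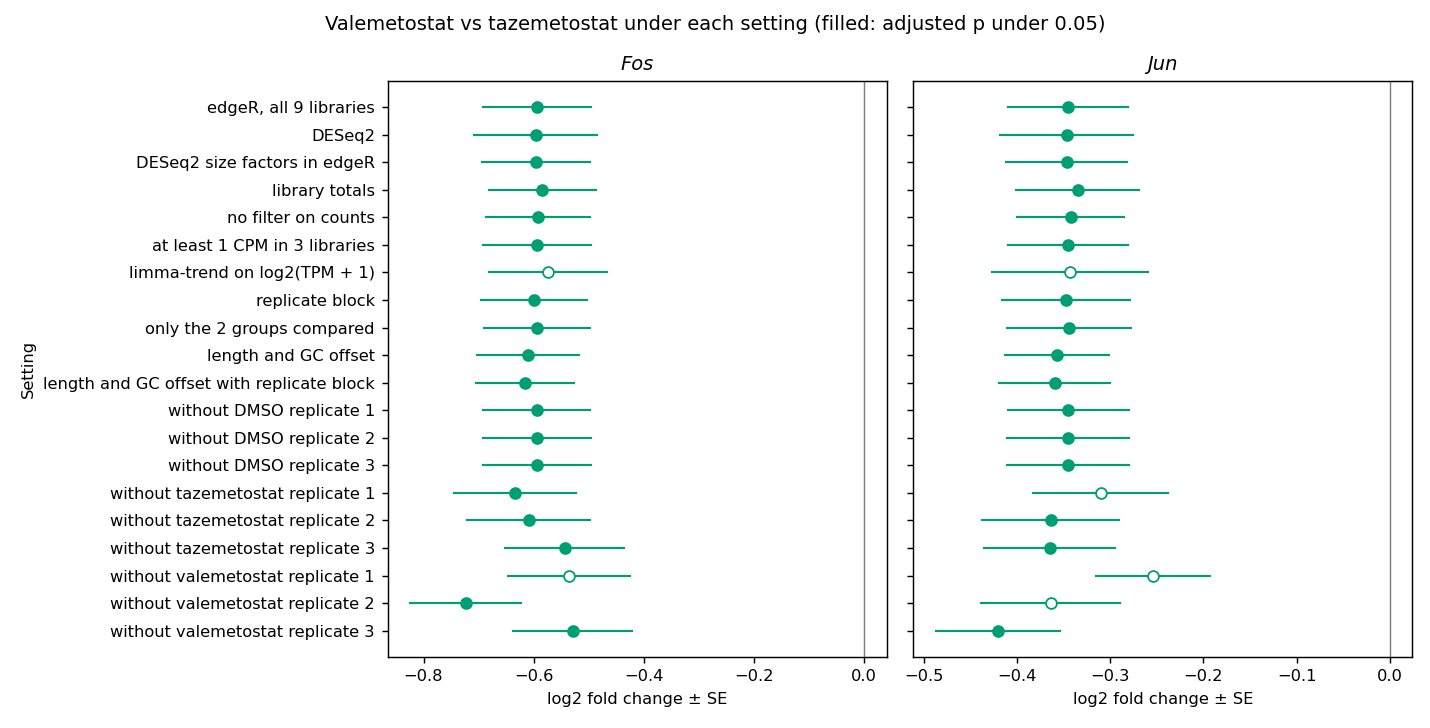
Log2 fold change ± SE between valemetostat and tazemetostat for Fos (left) and Jun (right) in the fit of all 9 libraries (top) and under 19 alternatives. Filled points have an adjusted p under 0.05. All values are negative, from -0.72 to -0.53 for Fos and from -0.42 to -0.25 for Jun.

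The plot of settings shows that neither direction turned under any of the 19 alternatives, while the adjusted p of Fos ran from 7.16e-07 to 0.254 and that of Jun from 2.85e-06 to 0.528. A few other genes of the immediate-early class were also lower with valemetostat than with tazemetostat. Of 14 tested immediate-early genes outside the family, 2 were lower and 0 higher with valemetostat than with tazemetostat, 6 and 0 at an unadjusted p under 0.05, 3 and 0 by DESeq2, and 0 by limma-trend. Over all tested genes edgeR called 0.254% lower and 0.0636% higher in that comparison. Nr4a1, an orphan nuclear receptor induced by antigen receptor signals, averaged 21.4 ± 2.84 CPM with valemetostat, 44.8 ± 5.96 with tazemetostat and 23.9 ± 4.19 with DMSO, a log2 fold change of -1.07 ± 0.14 between the compounds (edgeR adjusted p = 0.0112). Klf6, a zinc-finger factor, averaged 21.4 ± 0.937 CPM with valemetostat, 28.1 ± 1.90 with tazemetostat and 24.7 ± 0.469 with DMSO, a change of -0.39 ± 0.08 (adjusted p = 0.0145). Without valemetostat replicate 1 neither was called (adjusted p = 0.116 for Nr4a1 and 0.0908 for Klf6), and Klf6 was also lost without valemetostat replicate 2 (adjusted p = 0.149) or tazemetostat replicate 1 (0.176). In all, 3 of 19 alternatives lost the call of Nr4a1 and 4 lost that of Klf6.

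Against DMSO, 2 of the 14 immediate-early genes rose and 6 fell with valemetostat, and 5 rose and 3 fell with tazemetostat. The shares of all tested genes were 20.5% higher and 18.7% lower with valemetostat, and 19.9% higher and 18.2% lower with tazemetostat. The median log2 fold change of the 14 genes was -0.17 with valemetostat and 0.02 with tazemetostat. Nr4a3, a relative of Nr4a1, rose by 0.96 ± 0.23 with valemetostat and 1.88 ± 0.23 with tazemetostat. Ier3, an early response gene, rose by 0.37 ± 0.07 with valemetostat and 0.52 ± 0.07 with tazemetostat. Myc fell by 0.20 on the log2 scale with valemetostat and fell by 0.28 with tazemetostat. Ier2 had a log2 fold change of -0.36 with valemetostat and -0.24 with tazemetostat, both called. The list thus held genes that moved in both directions with either compound.

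The MAP kinase phosphatases, which switch off the kinases that induce FOS and JUN genes, gave 2 higher and 2 lower of 10 with valemetostat and 3 higher and 0 lower with tazemetostat. At an unadjusted p under 0.05, by DESeq2 and by limma-trend, 1 was lower with tazemetostat. Higher with tazemetostat were 4 at that unadjusted p, 3 by DESeq2 and 2 by limma-trend. With valemetostat, 2 were higher and 4 lower at that p, 2 and 1 by DESeq2, and 1 and 1 by limma-trend. For these phosphatases and the kinases below, the shares of all tested genes were 20.5% higher and 18.7% lower with valemetostat. With tazemetostat they were 19.9% higher and 18.2% lower. Dusp10, which acts on JNK and p38, averaged 37.2 ± 2.29 CPM with valemetostat, 38.5 ± 1.12 with tazemetostat and 25.6 ± 2.43 with DMSO, log2 fold changes of 0.54 ± 0.07 with valemetostat and 0.59 ± 0.07 with tazemetostat. Dusp4 rose by 0.24 ± 0.05 with valemetostat and 0.42 ± 0.05 with tazemetostat. Dusp2 fell by 0.40 with valemetostat (edgeR adjusted p = 0.0277), a call lost under 6 of 19 alternatives. Among them was leaving out any 1 of DMSO replicates 1 and 2, valemetostat replicates 1 and 2 or tazemetostat replicate 3. Between the compounds 0 were called by edgeR, while 4 were lower at an unadjusted p under 0.05, 1 by DESeq2 and 0 by limma-trend. Of 22 tested kinases of the MAP kinase cascade, 6 rose and 5 fell with valemetostat, and 7 rose and 6 fell with tazemetostat. DESeq2 gave those counts too, while limma-trend called 1 higher and 4 lower with valemetostat and 0 higher and 4 lower with tazemetostat. Of all tested genes limma-trend called 1191 higher and 2117 lower with valemetostat, and 1177 higher and 1946 lower with tazemetostat. At an unadjusted p under 0.05, 6 kinases were higher and 6 lower with valemetostat, and 8 higher and 7 lower with tazemetostat. Their median log2 fold change was 0.02 with valemetostat and 0.04 with tazemetostat. Map2k6, a p38 activator, rose by 0.39 ± 0.05 with valemetostat and 0.28 ± 0.05 with tazemetostat. Braf was the only kinase called between the compounds, lower with valemetostat by -0.27 ± 0.06 (edgeR adjusted p = 0.0386), and this call was lost under 8 of 19 alternatives. It was lost without any 1 of the 3 valemetostat libraries or tazemetostat replicates 1 and 2 (adjusted p = 0.0683 to 0.341), with library totals (0.0973), with the replicate block (0.0533) and with limma-trend (-0.09, adjusted p = 0.989).

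Among proteins that bind DNA beside AP-1, more transcripts fell than rose. Of 11 tested partners, 0 rose and 7 fell with valemetostat, and 1 rose and 6 fell with tazemetostat, and the median log2 fold change was -0.23 with valemetostat and -0.17 with tazemetostat. Of all tested genes, 20.5% rose and 18.7% fell with valemetostat, and 19.9% rose and 18.2% fell with tazemetostat. DESeq2 called 7 partners lower with valemetostat and 5 with tazemetostat, and limma-trend called 4 lower with each. Among all tested genes limma-trend called 1191 higher and 2117 lower with valemetostat, and 1177 higher and 1946 lower with tazemetostat. With valemetostat 0 partners were higher by either tool or at an unadjusted p under 0.05. Irf8, a BATF partner, averaged 61.4 ± 6.83 CPM with valemetostat, 63.8 ± 2.02 CPM with tazemetostat and 110.4 ± 1.68 CPM with DMSO, log2 fold changes of -0.85 ± 0.06 with valemetostat and -0.79 ± 0.06 with tazemetostat. Irf4, the other BATF partner, averaged 298 ± 13.6 CPM with valemetostat, 300.3 ± 15.1 with tazemetostat and 367 ± 14.96 with DMSO. Its log2 fold changes were -0.30 ± 0.05 with valemetostat and -0.29 ± 0.05 with tazemetostat. Batf and these partners therefore moved in opposite directions under both inhibitors. Nfatc3, of the NFAT factors that bind beside FOS and JUN, fell by 0.35 with valemetostat. Nfat5 had a log2 fold change of -0.74 ± 0.10 with valemetostat and -0.65 ± 0.10 with tazemetostat. Spib, an Ets factor of B cells, rose by 0.20 ± 0.05 with tazemetostat. Between the compounds 0 partners were called by edgeR, DESeq2 or limma-trend, and 3 were lower at an unadjusted p under 0.05.

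Of 28 tested bZIP factors outside the family, 5 rose and 13 fell with either inhibitor, and the median log2 fold change was -0.11 with valemetostat and -0.13 with tazemetostat. The shares of all tested genes were 20.5% higher and 18.7% lower with valemetostat, and 19.9% higher and 18.2% lower with tazemetostat. Of the 28 factors limma-trend called 3 higher and 11 lower with valemetostat, and 2 higher and 8 lower with tazemetostat. Over all tested genes limma-trend called 1191 higher and 2117 lower with valemetostat, and 1177 higher and 1946 lower with tazemetostat. Bach2, a bZIP repressor that restrains plasma cell formation, rose to 39.2 ± 2.42 CPM with valemetostat and 47.2 ± 1.32 CPM with tazemetostat, against 17.1 ± 1.38 CPM with DMSO. Its log2 fold changes were 1.19 ± 0.07 with valemetostat and 1.46 ± 0.07 with tazemetostat. Nfil3, a bZIP repressor, rose by 0.39 ± 0.04 with valemetostat and 0.37 ± 0.04 with tazemetostat. Cebpg, a C/EBP protein without an activation domain, fell by 0.38 with valemetostat and fell by 0.36 with tazemetostat. Mafk, a small Maf protein that pairs with Bach factors, fell by 0.48 with valemetostat and fell by 0.43 with tazemetostat. Between the compounds 0 of the 28 were called by edgeR, DESeq2 or limma-trend, with 2 higher and 2 lower at an unadjusted p under 0.05.

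Known AP-1 target genes moved in both directions. Of 14 tested, 6 rose and 5 fell with valemetostat, and 6 rose and 2 fell with tazemetostat. Of all tested genes, 20.5% rose and 18.7% fell with valemetostat, and 19.9% rose and 18.2% fell with tazemetostat. Vim, which encodes the intermediate filament vimentin, had 36.5 ± 4.76 CPM with valemetostat and 32.8 ± 2.42 CPM with tazemetostat, against 1.25 ± 0.0447 CPM with DMSO, log2 fold changes of 4.86 ± 0.12 with valemetostat and 4.71 ± 0.12 with tazemetostat. Ccnd1, which encodes cyclin D1, rose by 0.38 ± 0.06 with valemetostat and 0.50 ± 0.06 with tazemetostat on the log2 scale. Hmox1, which encodes haem oxygenase, fell by 0.51 with valemetostat and fell by 0.58 with tazemetostat. Plau, which encodes urokinase, was the only target called between the compounds. It averaged 10.6 ± 0.811 CPM with valemetostat, 16.0 ± 0.554 CPM with tazemetostat and 16.0 ± 1.46 CPM with DMSO, a log2 fold change of -0.60 ± 0.10 between the compounds (edgeR adjusted p = 0.00501). Its call was lost under 2 of 19 alternatives. Without valemetostat replicate 1 its adjusted p was 0.0568, and limma-trend called 0 targets between the compounds. The tazemetostat and DMSO averages of Plau differed by less than their SDs, whereas for Fos and Jun all tazemetostat libraries lay above all DMSO libraries.

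Of 8 tested genes of class switching, 2 rose and 0 fell with valemetostat, and 3 rose and 0 fell with tazemetostat. The shares of all tested genes were 20.5% higher and 18.7% lower with valemetostat, and 19.9% higher and 18.2% lower with tazemetostat. DESeq2 called 0 of the 8 lower in either comparison. At an unadjusted p under 0.05, 0 were lower with valemetostat and 1 with tazemetostat, and limma-trend called 1 lower with valemetostat and 0 with tazemetostat. Ighg2b transcripts, of an immunoglobulin heavy chain constant region, rose by 1.25 ± 0.20 with valemetostat and 1.46 ± 0.20 with tazemetostat, and reads of the near-identical immunoglobulin constant genes may be shared. Between the compounds 0 of the 8 were called by edgeR, DESeq2 or limma-trend, and 0 had an unadjusted p under 0.05.

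Gene profiles most like those of Batf and Junb are given as a description. Likeness is Pearson's r of log2 CPM over the 9 libraries, among 8755 genes of at least 3 log2 CPM, and the libraries share 3 treatment groups. Most like Batf were Rap2a, Btg1, Hsph1, Snx19 and Lmna, with r from 0.984 to 0.990. Each of these was highest with tazemetostat and lowest with DMSO, as in Lmna with 38.6 CPM with valemetostat, 45.3 with tazemetostat and 16.8 with DMSO. Most like Junb were Cbx8, Mrpl14, H2-T-ps, Ddit4 and Lage3, with lower values of r, from 0.916 to 0.933. Each of these averaged highest with valemetostat, as in Ddit4 with 257 CPM with valemetostat, 239 with tazemetostat and 210.4 with DMSO.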

How the data were processed

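The authors deposited whole-number counts per gene for 9 poly(A) RNA-seq libraries, and a table of log2 values. Those values were taken as log2(TPM + 1). TPM were recovered as 2 raised to the power of each value, less 1. Per the submitters' processing notes the genome build was mm9. No aligner, counting program, annotation or use of strand is stated there.

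Counts were tested with edgeR 4.0.16 in R 4.3.3: TMM scaling, the filterByExpr minimum count of 10 and total of 15, 1 robust quasi-likelihood fit of all 9 libraries in 3 groups, and Benjamini-Hochberg adjustment over 12580 genes. The SE of a log2 fold change is its size divided by the root of F, and intervals are 95%. CPM are TMM-scaled. The test was tested on simulated data. The CPM of 3 counts, given for depth, was not a filter in the tests and covers counting error only. Replicates differed by more than sampling noise, their chi-square divided by its degrees of freedom being 5.28 to 13.7.

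The members and gene lists were chosen with earlier results of these data known. Apart from cell type markers, list members named are among the up to 4 called genes with the smallest p per comparison. Not every such gene is named, and Jdp2 was named after its values were seen. A gene that this rule names is not reported here. GENCODE M21 (GRCm38) gave transcript lengths, GC content and gene order, and RefSeq gave promoters, for 9 of 10 members. Alternatives were DESeq2 1.42.0, its size factors, library totals, no filter, at least 1 CPM in 3 libraries, limma-trend (limma 3.58.1) on the deposited log2 values, the replicate number as a block, the compared groups alone, a spline offset (5 degrees of freedom) for length and GC content with and without the block, and leaving out each library. No batch is given in the labels.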

Additional observations from a re-analysis of the deposited data

How the results depend on the processing

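Each member's log2 fold change in the 3 comparisons was recomputed under 19 alternatives. Of these 456 values, 424 kept their direction and side of the threshold, 11 lost a call, 11 gained one, and 10, none of them called, changed sign. For the list genes, 2278 of 2394 values kept both, 77 lost a call, 16 gained one and 23, none of them called, changed sign. Batf and Jun against DMSO and Fos with tazemetostat kept their calls throughout. The genes called between valemetostat and tazemetostat, 40 by edgeR, were 70 with DESeq2, 80 with the length and GC offset, 93 with no filter, 1 with limma-trend, and 9 to 75 when 1 library was left out. Members called there were 0 with limma-trend and 0 to 2 with 1 library left out. Against DMSO, members called with valemetostat were 5 with no filter and 2 to 5 with 1 library left out. Genes called with tazemetostat were 3123 with limma-trend. Of those, 1177 were higher, against 2508 of 4794 by edgeR. With valemetostat limma-trend called 1191 higher of 3308, against 2577 of 4927 by edgeR. With library totals the tazemetostat split was 2237 higher of 4883. The summed level of the members, 1197 TPM on average, was 1814 with counts per reference transcript length. The causes were not tested.

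The log2 fold changes that changed sign were not called. Between valemetostat and DMSO, Batf3 was -0.0739 with limma-trend, -0.0965 with the length and GC offset and -0.10 with that offset and the replicate block, and -0.0375 to 0.141 with 1 library left out. Between tazemetostat and DMSO, Fosb ran from -0.26 to 0.57 with 1 library left out, and Plau from -0.0750 to 0.0534, with 0.00336 under the 1 CPM filter and 0.00308 in the compared groups alone. Between the compounds with 1 library left out, Jund ran from -0.00578 to 0.123, Batf3 from -0.17 to 0.000629, Cd74 from -0.0329 to 0.00360, Ighg3 from -0.12 to 0.00854, Irf8 from -0.14 to 0.0277, Irf4 from -0.0497 to 0.0317, Map3k8 from -0.0491 to 0.127, Dusp10 from -0.0762 to 0.00143, Lyz2 from -0.30 to 0.33, Csf1r from -0.13 to 0.0158 and Nfil3 from -0.00456 to 0.0410. There limma-trend gave 0.0789 for Ighg3 and 0.12 for Adgre1, and the offset gave -0.00172 for Nfil3, or -0.00153 with the block.

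Deviations of libraries with the same replicate number, each from the mean of its group of 3, correlated at -0.040 to 0.076. With so few libraries these values cannot decide whether a number marks a shared origin. With the replicate block, 4713 genes and 3 members were called with valemetostat, 4527 and 4 with tazemetostat, and 32 and 2 between the compounds. Depth limits Fosl1 and Atf3, with at most 8 counts in a library.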
